A study of Mus musculus with 6 samples.

Results

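The genes of the DNA replication machinery were followed in adult mouse small-intestinal organoids in which an active form of YAP was induced. The set held 44 genes of origin licensing, the replicative helicase, the polymerases, the sliding clamp and its loader, Okazaki fragment joining, chromatin assembly and nucleotide supply. Its members were chosen by symbol and matched by Entrez ID to rows of the deposited count table, which had 24594 genes. All 44 had a row, and 43 passed the filter on low counts. Cdc45 did not.

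Organoids are epithelial structures grown in a gel, here from crypts of the proximal small intestine in medium with EGF, Noggin and R-spondin1; whether CHIR99021 or nicotinamide was added to these cultures is not stated. All 6 libraries carried the TetON-hYAP/H2B-mCherry genotype, in which doxycycline switches on a human YAP and a red fluorescent histone. YAP is a transcriptional coactivator that the Hippo pathway holds in check. The transgene is the S127A mutant, which is constitutively active per the design text. Reads of the human transgene were not analysed here. The 3 doxycycline libraries came from organoids given 1 µg/ml doxycycline for 48 h from passaging, and the 3 control libraries from organoids without it. No library had doxycycline without the transgene, so drug and YAP cannot be told apart, and neither the age of the mice nor the cell type driving the transgene is stated in the sources used here. The protocol gives 1 individual per sample of adult crypts, but not whether the libraries here came from different animals or cultures. The p-values thus measure the spread between these libraries, which may be technical.

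DNA is copied once per cell cycle. In G1, the origin recognition complex with CDC6 and CDT1 loads the ring of MCM2 to MCM7 onto DNA, and in S phase CDC45 and the GINS complex join it to form the moving helicase. DNA polymerase alpha with primase starts each strand, and polymerases epsilon and delta extend it, held on DNA by the PCNA clamp that replication factor C loads. In the intestine these genes are used by the dividing cells of the crypt and are shut down as cells differentiate.

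Libraries held 11258768 to 16803062 counts in the doxycycline group and 8533452 to 14643817 in the control group. Control replicate 3 stood apart, with a correlation of log2 CPM across genes with the other control libraries of 0.918 and 0.922, where those correlated at 0.993 with each other. Of 12909 genes tested across the table, 5850 changed (45.3%), with 23.6% lower and 21.7% higher. Of the YAP-TEAD target genes, all 7 tested rose. Of the epithelial markers, 5 of 6 rose and Epcam was not called. Of 10 mesenchymal markers, 4 (Col1a1, Dcn, Lum and Thy1) had no count in any library, and the list summed to 1.11 to 1.70 CPM with doxycycline and 4.43 to 6.49 CPM in controls; Vim, the one member tested, had 0.607 to 1.13 and 3.42 to 5.91 CPM and fell. The immune list summed to 30.3 to 32.3 and 22.9 to 45.8 CPM, with 2 of its 10 markers, among them Tyrobp, at 0 counts. Of its 3 markers tested, none was called. The endothelial list summed to 13.1 to 13.9 and 3.10 to 9.16 CPM, with Kdr at 0 counts. Its 2 markers tested both rose, with log2 fold changes of 1.53 and 1.75.

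Promoters of some members are shown first, because E2F transcription factors, which switch on S-phase genes, are known to act through short sites near these starts. The windows run from 250 bases before to 50 bases after each annotated start, in RefSeq's GRCm38.p6, of which mm10 is another name. A window was found for 37 of the 44 members. Pola1, Fen1 and Tyms were taken as the members with the smallest adjusted p that had a window, and Pcna was taken as a member that did not fall. Mcm3 and Cdc6 were added after their matches were seen. Capitals mark TTTNNCGC, the E2F-type motif in either orientation, and CCAAT, the NF-Y motif in either orientation. The windows are Pola1 at chrX:93632106-93632405 (- strand), Fen1 at chr19:10204344-10204643 (- strand), Tyms at chr5:30073576-30073875 (- strand), Mcm3 at chr1:20820263-20820562 (- strand), Cdc6 at chr11:98907901-98908200 (+ strand) and Pcna at chr2:132253131-132253430 (- strand), each printed 5′ to 3′ on the gene's strand.
Pola1: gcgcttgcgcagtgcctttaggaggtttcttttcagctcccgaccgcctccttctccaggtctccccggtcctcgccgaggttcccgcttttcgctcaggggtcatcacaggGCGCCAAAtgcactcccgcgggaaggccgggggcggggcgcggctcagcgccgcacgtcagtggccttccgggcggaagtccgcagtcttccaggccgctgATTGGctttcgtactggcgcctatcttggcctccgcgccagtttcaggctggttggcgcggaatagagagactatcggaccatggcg
Fen1: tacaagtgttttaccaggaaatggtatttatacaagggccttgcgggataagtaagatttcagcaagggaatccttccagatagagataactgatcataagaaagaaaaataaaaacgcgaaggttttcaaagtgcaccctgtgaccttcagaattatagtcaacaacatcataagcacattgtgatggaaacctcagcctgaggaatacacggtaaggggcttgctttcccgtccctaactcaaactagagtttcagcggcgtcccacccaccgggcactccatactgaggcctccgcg
Tyms: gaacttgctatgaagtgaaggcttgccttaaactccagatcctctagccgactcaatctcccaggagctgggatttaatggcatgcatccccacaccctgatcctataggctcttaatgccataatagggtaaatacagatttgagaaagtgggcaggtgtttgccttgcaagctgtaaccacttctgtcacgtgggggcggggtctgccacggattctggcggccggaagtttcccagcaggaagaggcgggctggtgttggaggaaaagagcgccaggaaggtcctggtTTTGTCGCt
Mcm3: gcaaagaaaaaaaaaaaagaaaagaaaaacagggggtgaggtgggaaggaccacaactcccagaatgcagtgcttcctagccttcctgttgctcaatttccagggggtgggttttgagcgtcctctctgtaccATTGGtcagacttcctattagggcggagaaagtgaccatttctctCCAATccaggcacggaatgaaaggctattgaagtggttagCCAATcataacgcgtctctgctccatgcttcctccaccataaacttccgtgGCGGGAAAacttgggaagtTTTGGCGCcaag
Cdc6: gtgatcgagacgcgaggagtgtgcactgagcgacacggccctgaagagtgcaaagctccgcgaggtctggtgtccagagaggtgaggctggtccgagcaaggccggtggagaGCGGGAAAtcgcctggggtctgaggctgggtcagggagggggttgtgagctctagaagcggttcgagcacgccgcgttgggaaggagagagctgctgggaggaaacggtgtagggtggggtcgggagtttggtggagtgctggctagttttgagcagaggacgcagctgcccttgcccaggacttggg
Pcna: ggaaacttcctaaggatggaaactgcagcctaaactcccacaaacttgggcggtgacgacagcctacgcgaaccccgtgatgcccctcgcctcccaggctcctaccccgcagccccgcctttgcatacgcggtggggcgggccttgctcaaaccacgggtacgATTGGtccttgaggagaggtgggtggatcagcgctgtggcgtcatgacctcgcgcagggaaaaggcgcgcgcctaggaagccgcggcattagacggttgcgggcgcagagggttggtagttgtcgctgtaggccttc

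The Mcm3 window held 2 E2F-type matches, both just after the start, and 3 CCAAT matches before it. The Pola1 and Cdc6 windows each held 1 E2F-type match, 138 bases before the start used, and the Tyms window held 1 just after its start. The annotated genes Pola1 (- strand) and Cdc6 (+ strand) begin further upstream than these starts, at 93632387 and 98907709. Both matches thus lie inside the annotated genes. The Pcna window held a CCAAT match 87 bases before the start and none to the E2F-type motif, and the Fen1 window shown held neither. Over the 43 windows of the 37 members, some of which have more than 1 start, 16 (37.2%) held TTTNNCGC, against 5.17% of all 32851 windows. The specific forms TTTCCCGC and TTTGGCGC, which are contained in TTTNNCGC, were each in 16.3% of member windows, against 1.07% and 0.514% of all windows. CCAAT was in 58.1% of member windows and 37.4% of all windows. The cell cycle element TTTGAA was in 11.6% against 17.9%, and GGAATG, the TEAD motif, was in 9.3% against 14.7%. All motifs were searched on both strands, and a match is a run of letters, not a bound site. The windows of all genes were not matched to those of the members for base content or expression.

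With doxycycline, 40 of the 43 tested members fell, where 23.6% of all genes tested did, and none rose, where 21.7% of all genes did. The median log2 fold change was -2.24 over the members tested and -0.08 over all genes tested. For 41 members no doxycycline library reached the CPM of any control library, as for 31.3% of all genes. No member had all doxycycline libraries above all controls, where 30% of all genes did, so 61.3% of all genes were separate in either direction. Every one of the 40 fell by at least 2-fold in the fitted value, where 17.5% of all genes tested were called at that size. The calls came from edgeR's quasi-likelihood test with Benjamini-Hochberg adjustment over all genes, at a threshold of 0.05, and CPM are counts divided by TMM-scaled library sizes. In bulk RNA, fewer cells in S phase and less of these transcripts per cell cannot be told apart.

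**Figure D1:**
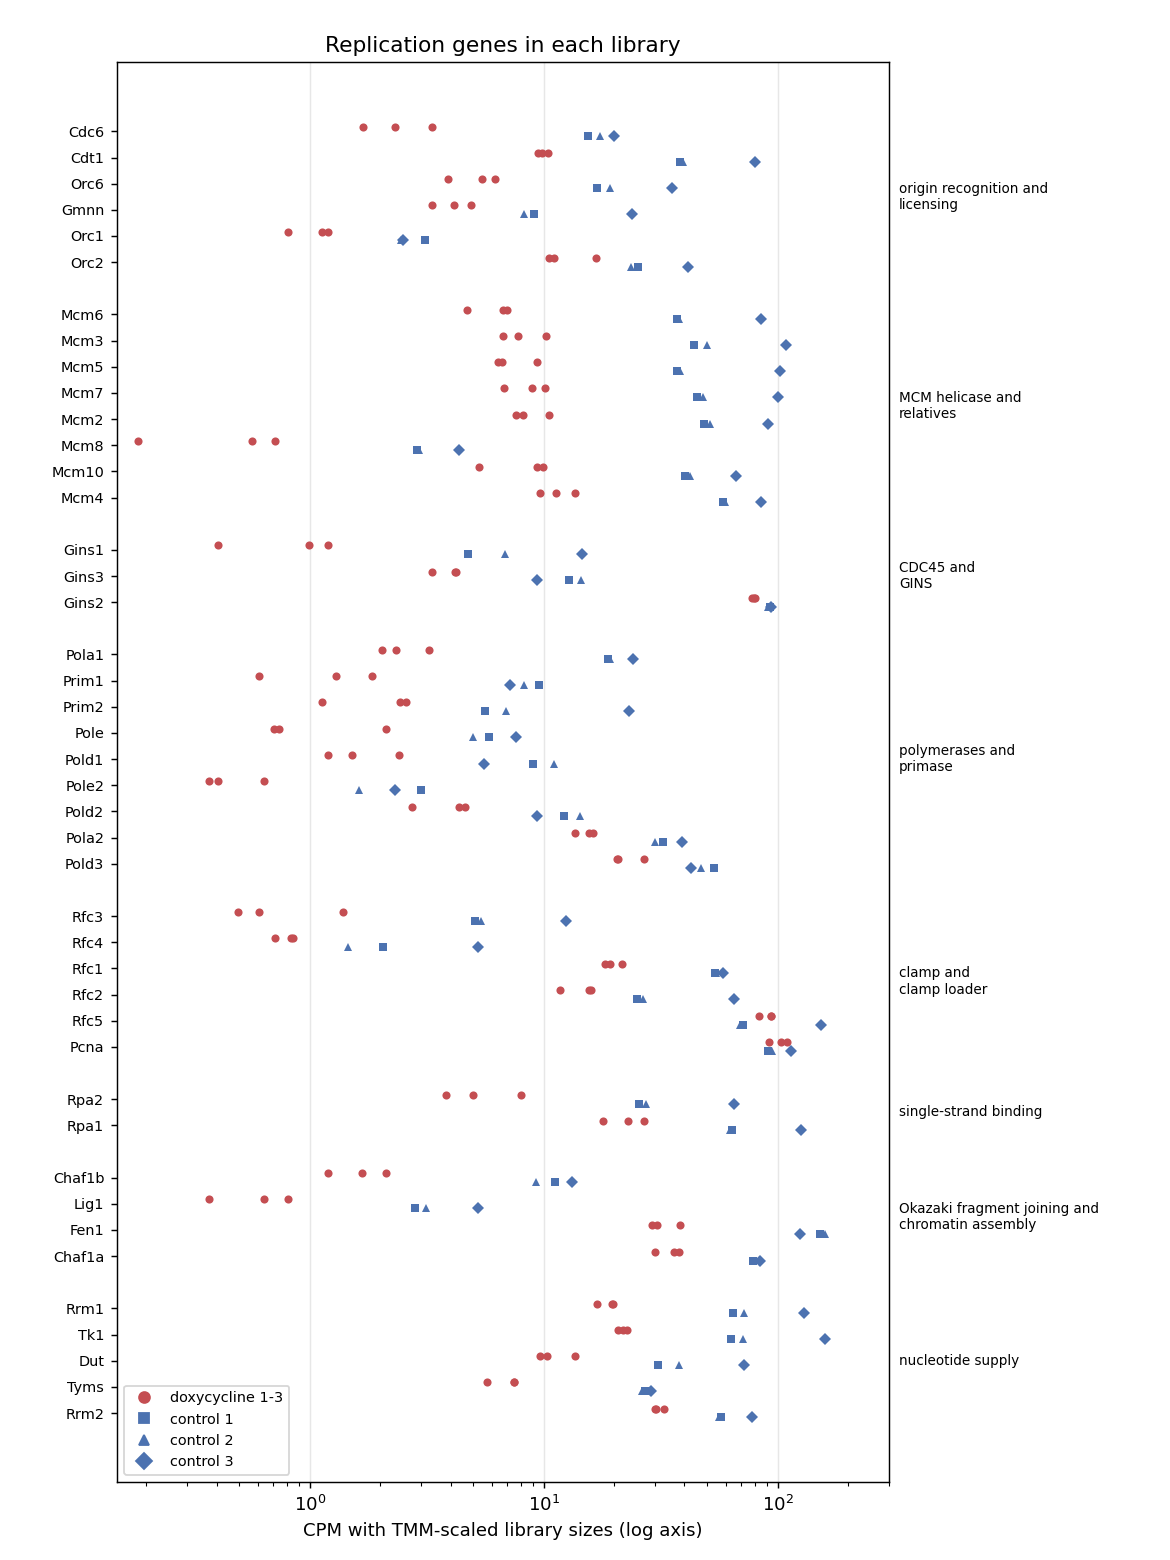
CPM of the 43 tested replication genes on a log axis, grouped by role; red circles are the 3 doxycycline libraries and blue symbols the 3 control libraries. Doxycycline points lie left of every control point for 41 genes; those of Pcna and Rfc5 overlap the controls, and control replicate 3 (diamonds) is the highest control for 35 genes.

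All 6 genes of origin recognition and licensing fell, and their median log2 fold change was -1.96. Cdc6 (Entrez 23834, chromosome 11, 98907709 to 98923942), the ATPase that helps load the MCM ring, had 3.34, 2.31 and 1.70 CPM in the doxycycline libraries, against 15.4, 17.4 and 20.03 CPM in the control libraries. The groups were far apart and all control libraries were similar. The log2 fold change of Cdc6 was -2.86, with an SE of 0.299 and an edgeR adjusted p of 5.14e-04. Cdt1 (chromosome 8, 122568015 to 122573130), the loading factor that works with CDC6, had 9.81, 9.44 and 10.5 CPM with doxycycline, against 38.4, 39.3 and 80.1 CPM in controls, of which control replicate 3 was the highest. Its log2 fold change was -2.40 with an SE of 0.328 (edgeR adjusted p = 0.00145). Orc2, a subunit of the origin recognition complex, had 16.8, 11.1 and 10.5 CPM, against 25.3, 23.6 and 41.4 CPM. Its log2 fold change of -1.23 (SE 0.301, adjusted p = 0.0148) was the smallest in size of the class. Orc1 and Orc6, further subunits, had log2 fold changes of -1.35 and -2.20.

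Gmnn, which encodes geminin, the inhibitor of CDT1, had 4.15, 3.33 and 4.88 CPM with doxycycline, against 9.07, 8.24 and 23.9 CPM in controls. Its log2 fold change was -1.72 with an SE of 0.463 (edgeR adjusted p = 0.0215), and -1.05 without control replicate 3. The ratio of Gmnn to Cdt1 CPM was 0.423, 0.353 and 0.466 with doxycycline, against 0.236, 0.209 and 0.298 in controls. The ratio was thus higher in every doxycycline library than in any control library. Together with the ratios of another 4 pairs of members below, all picked after their values were seen, it had a two-sided exact permutation p of 0.1 over the 3 and 3 libraries, the smallest this design allows, and 0.1 after adjustment over the 5 pairs.

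All 8 genes of the MCM class fell, and their fold changes lay in a narrow range, with log2 values from -3.11 to -2.56 and a median of -2.89. Mcm6 (chromosome 1, 128331575 to 128359705) had 6.98, 4.72 and 6.71 CPM with doxycycline, against 37.02, 37.8 and 85.1 CPM in controls. Its log2 fold change of -3.11 had an SE of 0.40 (edgeR adjusted p = 0.00112). Mcm4 (chromosome 16, 15623897 to 15637400) had 13.7, 9.62 and 11.2 CPM, against 58.6, 59.9 and 85.3 CPM, with a log2 fold change of -2.56 (SE 0.233, adjusted p = 3.02e-04). These were the ends of the class, and in both the lowest control library held more than 4 CPM for each CPM in the highest doxycycline library. Mcm2 (chromosome 6, 88883474 to 88898780) lay between them with 10.5, 7.59 and 8.13 CPM with doxycycline and 48.4, 51.7 and 90.99 CPM in controls, a mean of 8.74 ± 1.56 against 63.7 ± 23.7 CPM (SD, n = 3 each). Mcm3, Mcm5 and Mcm7, the other subunits of the ring, had log2 fold changes of -3.03, -2.99 and -2.91, and Mcm5 had -2.34 without control replicate 3.

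As the 6 ring subunits assemble in equal numbers, their levels were also compared per kilobase of the longest coding transcript. Mean levels ran from 1.41 (Mcm6) to 3.21 CPM per kb (Mcm4) with doxycycline, and from 12.2 (Mcm6) to 22.2 CPM per kb (Mcm3) in controls. The highest subunit was 2.27 times the lowest with doxycycline and 1.81 times in controls. Outside the ring, Mcm10, which helps start the helicase, fell by 2.59 on the log2 scale. Mcm8, which acts with MCM9 in recombination rather than in the ring, fell by 2.76 on the log2 scale from a low level, with 0.708, 0.185 and 0.565 CPM with doxycycline and 2.87, 2.93 and 4.33 CPM in controls.

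**Figure D2:**
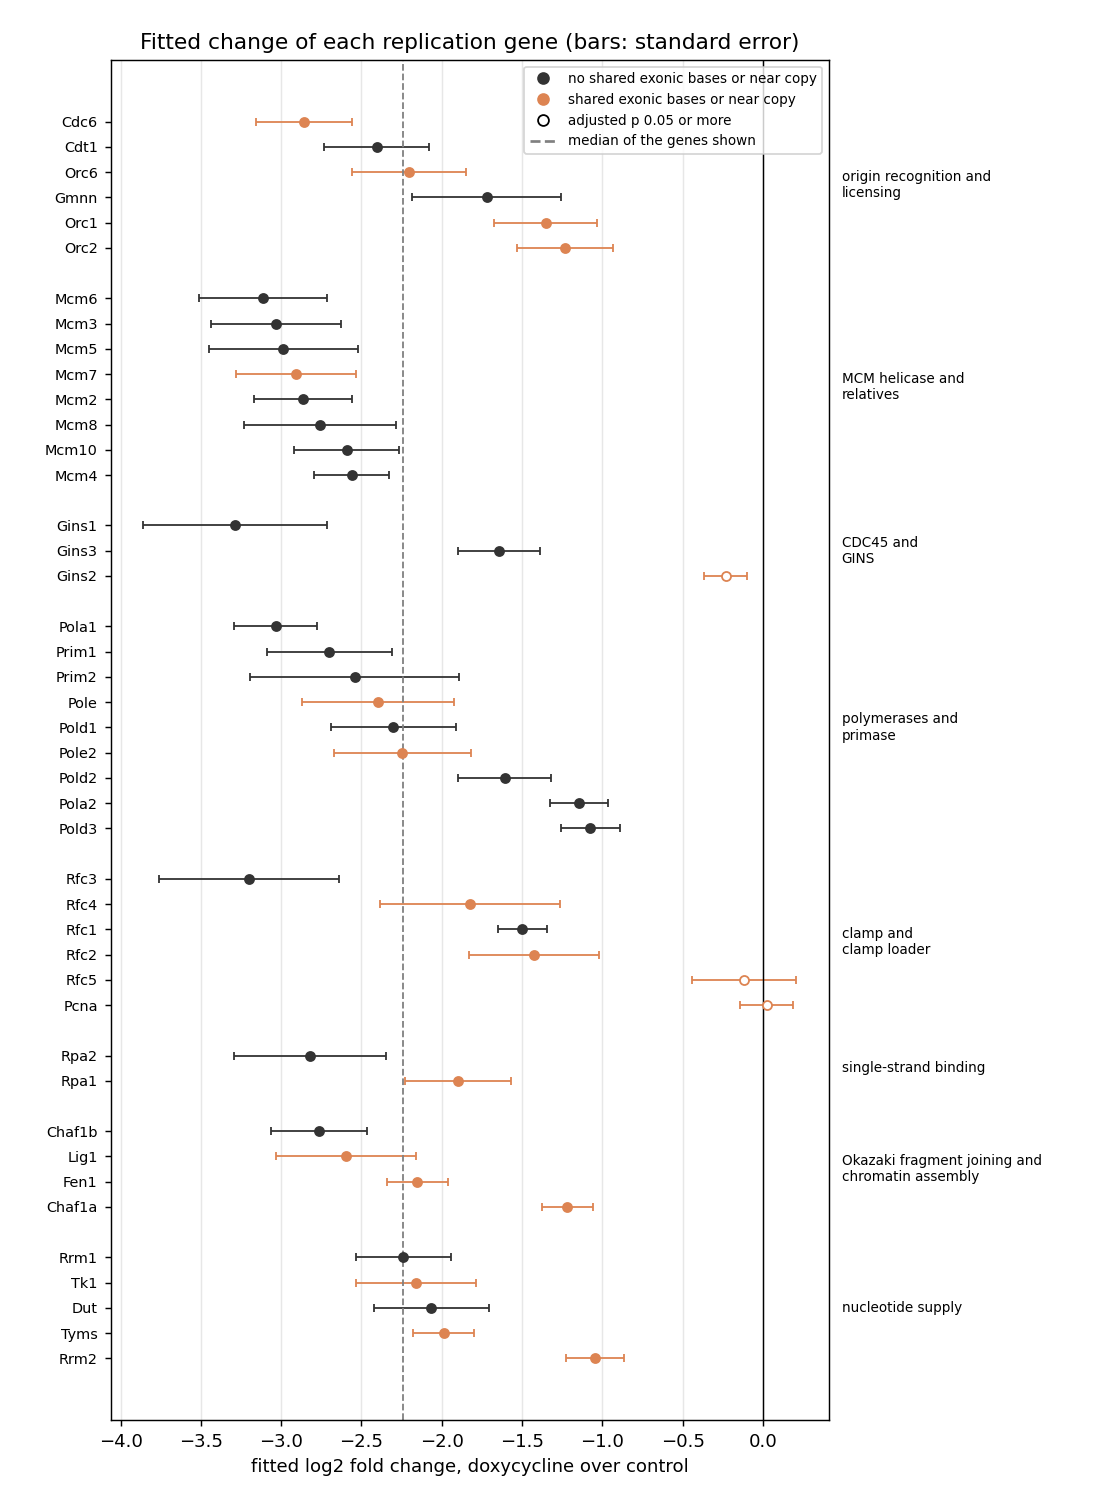
Fitted log2 fold change (doxycycline over control) of each tested replication gene with its standard error, grouped by role. Open points (Gins2, Rfc5 and Pcna) did not pass the threshold, all 3 are among the genes that share exonic bases with another gene or have a near copy (orange), and the MCM class lies between -3.11 and -2.56.

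Of the helicase partners tested, Gins1 and Gins3 fell and Gins2 did not pass. The remaining GINS subunit, Gins4, is among the further genes below and fell (log2 fold change -2.08, edgeR adjusted p = 0.0170). Cdc45, which joins the MCM ring with GINS, had 1, 1 and 3 counts in the doxycycline libraries and 12, 13 and 7 in the control libraries, too few for the filter. With no filter its log2 fold change was -2.42 (edgeR adjusted p = 0.0252). Gins1 (chromosome 2, 150909556 to 150931280), a GINS subunit, had 0.405, 1.20 and 0.989 CPM with doxycycline, against 4.74, 6.85 and 14.6 CPM in controls, and its log2 fold change of -3.29 (SE 0.574, adjusted p = 0.00394) was the lowest of all members tested. It was -2.68 without control replicate 3. Gins3 had 3.34, 4.16 and 4.24 CPM, against 12.9, 14.5 and 9.36 CPM, a log2 fold change of -1.64 (SE 0.255, adjusted p = 0.00229).

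Gins2 (Entrez 272551, chromosome 8, 120581266 to 120589075), another subunit of the same complex, had 77.6, 79.9 and 79.3 CPM with doxycycline, against 93.1, 90.7 and 93.9 CPM in controls. The groups did not overlap, yet the log2 fold change of -0.23 (SE 0.134) did not pass (edgeR adjusted p = 0.199). It passed, still lower with doxycycline, in 3 alternatives, which were leaving out control replicate 3 (log2 fold change -0.21, adjusted p = 0.0318), voom quality weights (-0.21, adjusted p = 0.0215) and total counts as the only scaling (-0.67, adjusted p = 0.00585). In the alternatives that tested for any change, the adjusted p of Gins2 ranged from 0.00585 to 0.412. Per kilobase, its level in controls was 23.7 CPM, against 8.03 for Gins1 and 4.86 for Gins3. The ratio of Gins2 to Gins3 CPM was 23.2, 19.2 and 18.7 with doxycycline, against 7.24, 6.27 and 10.03 in controls. In the GENCODE annotation of this assembly, 2758 of the 4097 exonic bases of Gins2 (67.3%) lie on exons of Gse1, a gene on the opposite strand. Gse1 itself had 89.5, 103.2 and 106.8 CPM with doxycycline, against 118.2, 110.6 and 82.1 CPM in controls, with a log2 fold change of -0.05. Whether counting used strand is not stated; without it, reads of these genes from the shared bases cannot be told apart. The part of Gse1 in the Gins2 row was not tested.

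All 9 polymerase and primase genes fell, and their median log2 fold change was -2.30. Pola1 (chromosome X, 93304766 to 93632387), the catalytic subunit of polymerase alpha, had 3.24, 2.04 and 2.33 CPM with doxycycline, against 18.9, 19.2 and 24.2 CPM in controls. Control libraries were close together, and its log2 fold change of -3.03 (SE 0.259, edgeR adjusted p = 2.27e-04) had the smallest adjusted p of all members. Pola2, the second subunit of the same enzyme, fell by 1.15 on the log2 scale. The primase genes Prim1 and Prim2 had log2 fold changes of -2.70 and -2.54, and Prim2 had -1.63 without control replicate 3.

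Among the subunits of polymerase delta, the lagging-strand enzyme, Pold1 and Pold2 had log2 fold changes of -2.30 and -1.61. Pold3 (chromosome 7, 100082110 to 100121502) had 26.8, 20.6 and 20.7 CPM with doxycycline, against 53.6, 47.03 and 42.7 CPM in controls. Its log2 fold change of -1.07 (SE 0.183, edgeR adjusted p = 0.00337) was the smallest in size of the class. Pole, the catalytic subunit of polymerase epsilon on the leading strand, and its partner Pole2 had log2 fold changes of -2.40 and -2.25. Both were low, at a mean of 1.19 and 0.47 CPM with doxycycline and 6.17 and 2.30 CPM in controls, and the value for Pole was -3.06 without doxycycline replicate 1.

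Of the clamp and its loader, 4 of 6 genes fell and 2 did not pass. Pcna (Entrez 18538, chromosome 2, 132249286 to 132253180), the sliding clamp that tethers polymerases and many repair factors, had 109.5, 91.8 and 103.0 CPM with doxycycline, against 90.8, 94.9 and 113.7 CPM in controls. The groups overlapped throughout. The means were 101.4 ± 8.97 and 99.8 ± 12.2 CPM (SD, n = 3 each). The log2 fold change of Pcna was 0.02, with an SE of 0.163 and an edgeR adjusted p of 0.921, and it passed the threshold in none of the alternatives run, where it ranged from -0.42 with total counts as the only scaling to 0.14 without control replicate 3. At 66.8 CPM per kb with doxycycline and 65.8 in controls it was among the highest members. Its coding transcript matches the processed pseudogene Pcna-ps2 at 99.2% identity over 781 bases, and how reads common to both were counted is not stated. Pcna-ps2 was not analysed here.

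The loader subunits differed among themselves. Rfc1 (chromosome 5, 65261852 to 65338617), the large subunit, had 21.6, 18.3 and 19.3 CPM with doxycycline, against 54.1, 54.7 and 58.6 CPM in controls, a log2 fold change of -1.50 (SE 0.152, edgeR adjusted p = 4.17e-04). Rfc3, a small subunit, had 0.607, 1.39 and 0.495 CPM, against 5.09, 5.39 and 12.5 CPM, a log2 fold change of -3.20 (SE 0.561, adjusted p = 0.00403). Rfc2 and Rfc4 had log2 fold changes of -1.43 and -1.82; leaving out control replicate 3 brought them to -0.82 and -1.12. The ratio of Pcna to Rfc1 CPM was 5.06, 5.01 and 5.34 with doxycycline, against 1.68, 1.73 and 1.94 in controls. This ratio did not overlap between the groups, in a pair picked after its values were seen.

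Rfc5 (Entrez 72151, chromosome 5, 117379145 to 117389023), another small subunit, had 93.3, 93.5 and 83.0 CPM with doxycycline, against 71.4, 68.8 and 152.7 CPM in controls. The doxycycline values lay above control replicates 1 and 2 and below control replicate 3. The log2 fold change of Rfc5 was -0.12, with an SE of 0.324 and an edgeR adjusted p of 0.794, and without control replicate 3 it was 0.37 (adjusted p = 0.00106), so the direction of this gene rests on 1 library. The ratio of Rfc5 to Rfc3 CPM was 153.8, 67.4 and 167.7 with doxycycline, against 14.03, 12.8 and 12.2 in controls. Rfc5 shares 499 of its 4669 exonic bases (10.7%) with Wsb2 on the opposite strand, and its transcript matches the processed pseudogene Gm12870 at 96.2% identity over 1020 bases. Wsb2 rose, with 250.2, 241.03 and 226.2 CPM with doxycycline, against 76.5, 71.4 and 115.5 CPM in controls (log2 fold change 1.45, adjusted p = 0.0023). Its part in the Rfc5 row was not tested.

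In the same annotation, 20 of the 44 members share exonic bases with another gene, or have a stretch of at least 200 bases at 95% identity or more in another transcript. The 3 members that did not pass were all among them. Of the other 24 members, 24 were tested and 24 fell, with a median of -2.58 on the log2 scale. Of the 19 tested members with shared bases or copies, 16 fell, with a median of -1.90. The share of exonic bases on another gene ran from 0.699% (Pole) to 78.8% (Fen1), and both of these genes fell. The search covered the 44 members only, so the share of all genes with shared bases or copies is not known. Whether shared bases or copies had a part in these values was not tested.

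Rpa1 and Rpa2, subunits of replication protein A, which coats single-stranded DNA, both fell, as did the small subunit Rpa3 of the further genes (log2 fold change -2.26). Rpa2 (chromosome 4, 132768360 to 132778746) had 7.99, 4.996 and 3.82 CPM with doxycycline, against 25.6, 27.2 and 65.3 CPM in controls, a log2 fold change of -2.82 (SE 0.475, edgeR adjusted p = 0.00341). Rpa1, the large subunit, had 26.8, 17.95 and 22.9 CPM, against 63.9, 62.7 and 125.8 CPM, a log2 fold change of -1.90 (SE 0.328, adjusted p = 0.00379). In both genes control replicate 3 was far above the other control libraries, and every control was above every doxycycline library.

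All 4 genes of Okazaki fragment joining and chromatin assembly fell. Fen1 (chromosome 19, 10199132 to 10204393), the flap nuclease that trims Okazaki fragments, had 38.3, 30.5 and 29.05 CPM with doxycycline, against 151.3, 159.6 and 124.1 CPM in controls. Here control replicate 3 was the lowest control library, and Fen1 had a log2 fold change of -2.15 with an SE of 0.189 (edgeR adjusted p = 2.5e-04). Lig1, the ligase that seals the fragments, fell by 2.60 on the log2 scale from a low level. Chaf1b, a subunit of the chromatin assembly factor that PCNA recruits, had 2.12, 1.67 and 1.20 CPM, against 11.2, 9.31 and 13.2 CPM (log2 fold change -2.76, SE 0.301, adjusted p = 5.54e-04). Chaf1a, the large subunit of that factor, had 36.1, 29.8 and 37.7 CPM, against 78.8, 78.4 and 83.8 CPM (log2 fold change -1.22, SE 0.158, adjusted p = 0.00108). Of the exonic bases of Fen1, 78.8% lie on exons of the antisense gene Gm10143, and 52.5% of those of Chaf1a on exons of Ubxn6 on the opposite strand.

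All 5 genes of nucleotide supply fell. Tyms (Entrez 22171, chromosome 5, 30038546 to 30073645), thymidylate synthase, had 7.48, 5.74 and 7.49 CPM with doxycycline, against 27.1, 26.4 and 28.9 CPM in controls. All control libraries were alike, and Tyms had a log2 fold change of -1.99 with an SE of 0.192 (edgeR adjusted p = 3.4e-04). Rrm1 (chromosome 7, 102441695 to 102469771), the large subunit of ribonucleotide reductase, had 19.6, 16.8 and 19.8 CPM, against 64.5, 72.1 and 129.2 CPM, a log2 fold change of -2.24 (SE 0.296, adjusted p = 0.00128). Rrm2 (chromosome 12, 24708254 to 24714146), the small subunit made in S phase, had 32.6, 30.1 and 29.96 CPM, against 57.1, 56.3 and 77.7 CPM, a log2 fold change of -1.04 (SE 0.182, adjusted p = 0.00373). The ratio of Rrm2 to Rrm1 CPM was 1.66, 1.79 and 1.51 with doxycycline, against 0.886, 0.78 and 0.601 in controls. Tk1, the cytosolic thymidine kinase, and Dut, which removes dUTP, had log2 fold changes of -2.16 and -2.06.

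**Figure D3:**
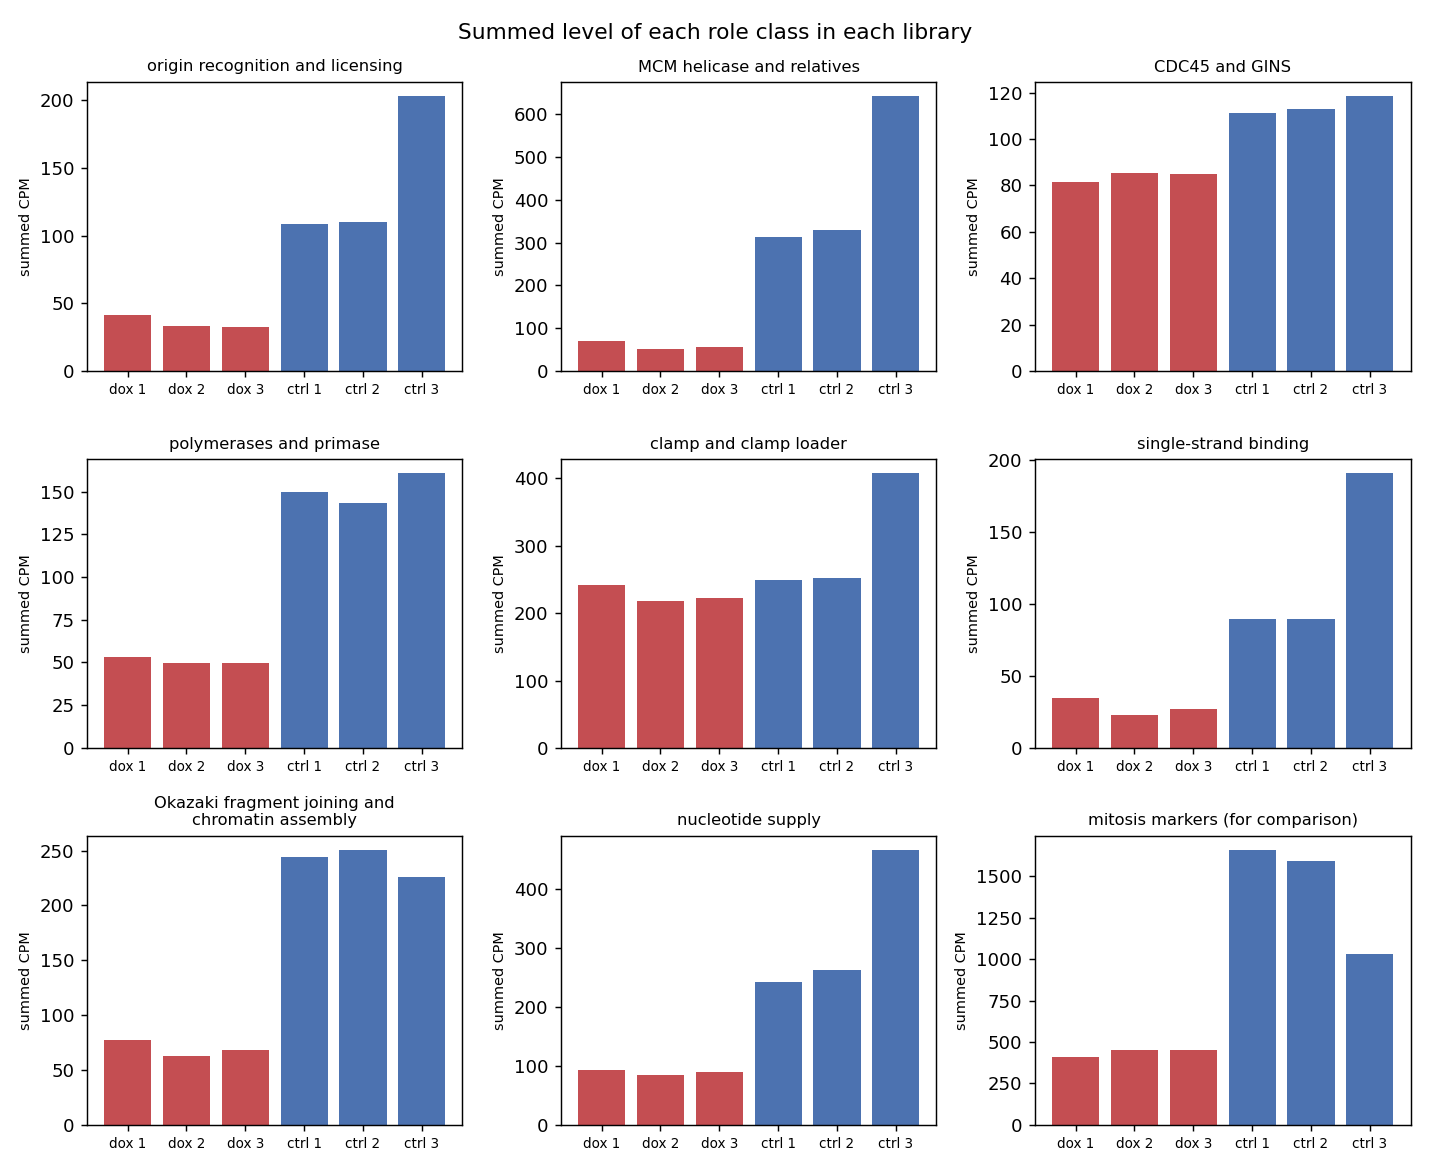
Summed CPM of each role class in each library, with mitosis markers for comparison; bars are single libraries, red for doxycycline and blue for control. Control replicate 3 is far above the other controls in the MCM class (642.9 CPM, against 313.5 and 330.6 CPM) and the lowest control for the 15 mitosis markers, where Mki67 alone holds 885.0, 810.3 and 161.3 CPM of the 3 control sums.

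The control libraries were not alike for these genes. Control replicate 3 was the highest control library for 35 of the 43 tested members, and for 5901 of the 12889 tested genes that had counts in control replicates 1 or 2. The ratio of its level to the mean of the other 2 control libraries was above 1.5 times for 22 members (51.2%), against 26.6% of all genes, with a median of 1.62 over the members and a range from 0.551 (Pold1) to 3.71 (Prim2). Mki67, the proliferation antigen, had 185.7, 246.8 and 235.9 CPM with doxycycline, against 885.0, 810.3 and 161.3 CPM in controls, so that it was lowest in control replicate 3. The other 14 mitosis markers summed to 225.2, 207.3 and 217.2 CPM with doxycycline, against 773.1, 782.6 and 872.0 CPM in controls. Of these 14 markers, 10 were highest and 4 lowest in control replicate 3 among the controls. Without control replicate 3, 42 of 44 members then tested fell, Rfc5 rose and Pcna did not pass, while the calls over all genes were 35.1% lower and 34.9% higher in that setting. The members' median log2 fold change was then -1.94.

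**Figure D4:**
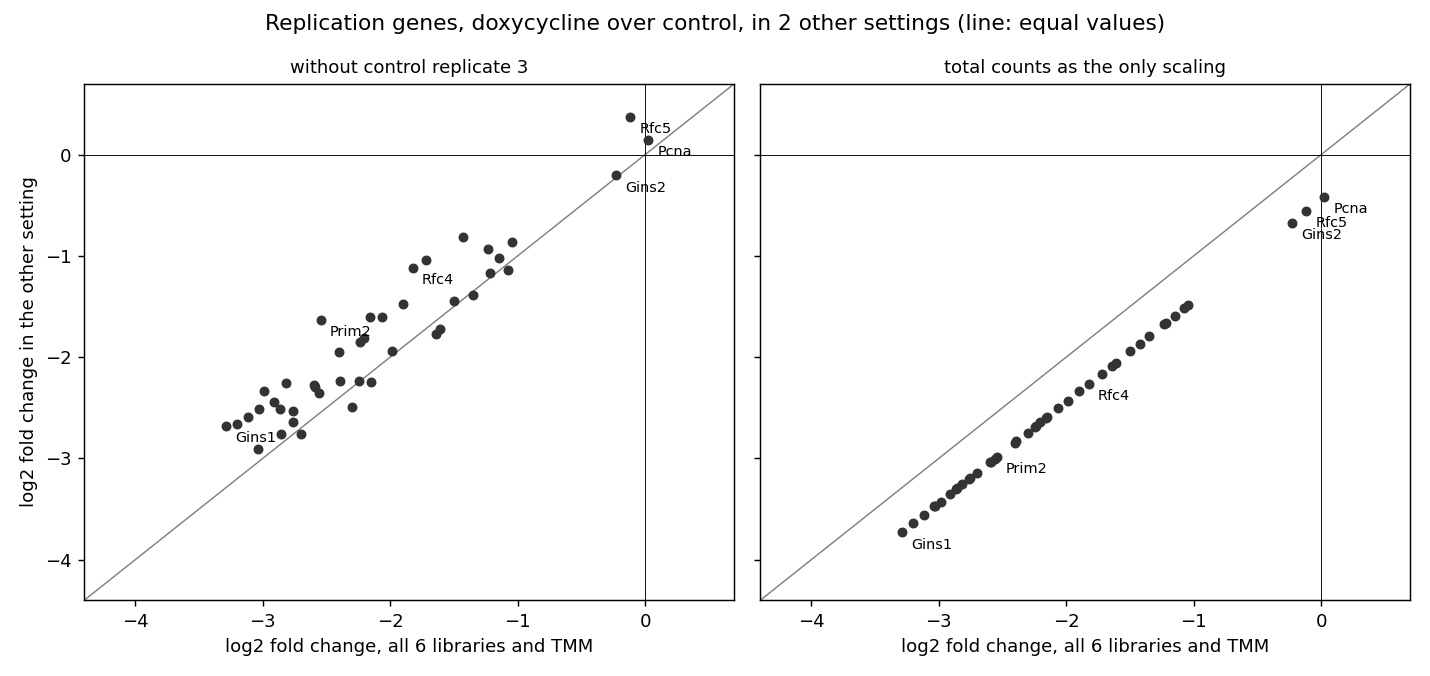
Log2 fold change (doxycycline over control) of the tested replication genes with all 6 libraries and TMM scaling on the horizontal axis, against the value without control replicate 3 (left) or with total counts as the only scaling (right). Without control replicate 3, Rfc5 lies above 0 and Prim2 moves from -2.54 to -1.63; with total counts all points lie below the line of equal values, and the median of the genes is -2.68.

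Another 51 genes of DNA replication were read from the same fit. Of these, 39 fell, where 23.6% of all genes tested did, and 1 rose, where 21.7% did. Their median log2 fold change was -1.37. Shmt1, which supplies one-carbon units for thymidylate synthesis, had 14.5, 13.4 and 11.8 CPM with doxycycline, against 86.9, 92.8 and 105.5 CPM in controls, a log2 fold change of -2.85 (edgeR adjusted p = 7.83e-05). Dtl, the adaptor that targets CDT1 for destruction at PCNA, had 5.97, 5.83 and 6.22 CPM, against 69.0, 68.05 and 46.9 CPM, a log2 fold change of -3.35 (adjusted p = 9.62e-05). Every doxycycline library lay far below every control for both genes. The fork protection genes Timeless and Clspn had log2 fold changes of -3.77 and -2.43. Wdhd1, which links polymerase alpha to the helicase, and Topbp1, which acts in origin firing, had -2.67 and -2.13. All 8 genes of origin firing and all 7 histone chaperone genes fell. Of the 9 further genes of licensing and its control, 4 fell and 5 were not called. Orc3 and Orc4, subunits of the origin recognition complex, had log2 fold changes of 1.08 and -0.10, and neither passed (adjusted p = 0.143 and 0.705). Orc3 was higher in every doxycycline library than in any control, and Orc4 overlapped between the groups. The class of primer removal and topoisomerases had 4 of 6 lower, nucleotide supply 6 of 9, the other clamp loaders 3 of 4 and the further fork subunits 7 of 8. These counts by class, Orc3 and Orc4 were chosen with their values known.

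The gene that rose was Pold4, the small accessory subunit of polymerase delta. It had 66.9, 62.5 and 67.4 CPM with doxycycline, against 11.9, 12.7 and 30.9 CPM in controls, a log2 fold change of 1.84 (SE 0.381, edgeR adjusted p = 0.00798; 2.43 without control replicate 3). The groups did not overlap. The other 3 subunits, Pold1, Pold2 and Pold3, all fell in the same libraries. Shared exonic bases and near copies were searched for the members only, not for Pold4. Of the 11 genes that were not called, Rrm2b, the ribonucleotide reductase subunit used outside S phase, had 5.66, 10.7 and 9.75 CPM, against 8.31, 9.16 and 2.82 CPM. Its values overlapped between the groups, and it was picked with its values known.

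Markers of dividing and differentiated cells moved in these libraries as well. Of all genes tested, 23.6% fell and 21.7% rose. Of the 15 mitosis markers, 13 fell and 0 rose, with a summed level of 410.9 to 454.03 CPM with doxycycline and 1033 to 1658 CPM in controls. All 10 crypt base stem cell markers fell, with a summed level of 152.6 to 156.5 CPM with doxycycline and 4464 to 5904 CPM in controls. Paneth cell markers, of which 5 of 5 fell, summed to 34.1 to 39.1 and 2294 to 4679 CPM. Of 12 enterocyte markers, 10 rose, with a summed level of 20322 to 21537 CPM with doxycycline and 2755 to 4564 CPM in controls. The replication genes together summed to 605.2 to 694.7 and 1507 to 2418 CPM. A shift in cell types and a change of these transcripts within cells cannot be told apart in bulk RNA. The part of either in the fall of the replication genes was not tested.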

How the data were processed

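RNA-seq gave 6 libraries, 3 per group. The deposited table holds whole-number read counts per Entrez gene, 1 column per library, which the authors had not normalized. The library kit was TruSeq RNA, per the labels' protocols. The submitters' processing notes name mm10 as the build. Aligner, counting tool, annotation, filters and use of strand are not given in the sources used here. Of counts from 1 to 10, 59.1 to 67.2% per library were even, so single counts may not be independent fragments.

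RefSeq's GRCm38.p6 table matched 24570 of 24594 IDs to symbols. Genes were tested in edgeR 4.0.16 (R 4.3.3) by its quasi-likelihood F-test with robust dispersion estimates, after its expression filter by group and TMM scaling, with Benjamini-Hochberg adjustment over all 12909 genes. Shared exons, transcript lengths and near copies (blastn) came from GENCODE M21.

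The alternatives were 3 other scalings (RLE, total counts as the only scaling, and TMM leaving out the 20 highest genes), no filter or one of 10 counts in 3 samples, DESeq2 1.42.0, voom of limma 3.58.1 without and with quality weights, a block for the replicate number, leaving out a library in turn, a threshold of 0.01 and testing against a 2-fold change.

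Members, lists and tests were chosen with earlier results of these data known. Library values are printed for the members with the smallest adjusted p and with the highest and lowest fold change of each role class, for those that did not pass, and for Pcna, Mcm2, Cdc6, Cdt1, Rrm2 and Tyms. Of the further genes, the 6 that fell with the smallest adjusted p and those that rose are named. Other named genes were picked after their values were seen.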

Additional observations from a re-analysis of the deposited data

How the results depend on the processing

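The number of members that fell was 40, and 34 to 42 with 1 library left out. It was 29 in the test against a 2-fold change and 34 to 41 in the other settings. Of all genes tested, 23.6% fell, and 14.3 to 35.1% with 1 library left out. That share was 8.16% in the test against a 2-fold change and 13.1 to 39.7% in the other settings. The genes tested numbered 12909 to 18043 over the settings, the most with no filter. The median log2 fold change of the members was -2.68 with total counts as the only scaling, where the median of all genes was -0.52, against -0.08 with TMM; all genes then gave 5131 lower and 1747 higher. With voom quality weights all genes gave 4885 lower and 4663 higher, 1 member rose (Rfc5, so 1 of the clamp and its loader) and 3 further replication genes rose. The test against a 2-fold change gave 1054 lower and 1058 higher over all genes, 18 further genes lower and 0 higher, and 3 licensing, 5 polymerase and 2 clamp class genes lower. A threshold of 0.01 gave 1697 lower and 1780 higher over all genes, and 3 licensing and 2 clamp class genes lower.

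With 1 library left out, all genes gave 1888 to 4654 lower and 1945 to 4632 higher, members 0 to 1 higher, further genes 1 to 3 higher, licensing genes 3 to 6 lower, CDC45 and GINS genes 2 to 4 lower, and clamp class genes 2 to 4 lower and 0 to 1 higher. The highest of the all-gene counts and the rises came without control replicate 3; licensing had 3 without doxycycline replicate 3, and the clamp class 2 without any one doxycycline replicate. Pcna had a log2 fold change of the other sign with total counts (-0.42) and without doxycycline replicate 1 (-0.026), control replicate 1 (-0.039) or control replicate 2 (-0.012), within a range of -0.039 to 0.14 with 1 library left out. Rfc5 did so with quality weights (0.33) and without control replicate 3 (0.37), in a range of -0.32 to 0.37. Calls of Orc1, Orc2, Gmnn, Prim2, Rfc2 and Rfc4 were lost without one or more doxycycline replicates, that of Orc1 also without control replicate 1, those of Orc1, Prim2 and Rfc4 with the block, and that of Rfc4 with voom. In these 21 cases the adjusted p was 0.0514 to 0.107 and the log2 fold change 0.834 to 1.08 times that with all libraries and TMM. The cause was not tested.

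With the replicate number as a block, 37 members fell and 0 rose, and all genes gave 2248 lower and 2261 higher. The correlations of deviations between same-numbered libraries were -0.34, 0.15 and -0.22. With 3 libraries per group and control replicate 3 apart from the others, these values cannot show whether the numbers pair the libraries. Members under about 1 CPM with doxycycline (Orc1, Mcm8, Gins1, Pole2, Rfc3, Rfc4 and Lig1) rest on few counts, and Cdc45 on 5 counts over the doxycycline libraries.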
